A study of Mus musculus with 18 samples.

Results

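Fkbp5, Zbtb16, Per1, Sgk1, Dusp1 and Ddit4 are genes whose transcription the glucocorticoid receptor is known to raise directly. They were followed across a mouse microarray study of fat cell formation, through every probe set (the group of short probes that reads 1 transcript) whose annotated symbol was 1 of the 6. The 6 genes, of 8252 named on the array, had 7 of its 12488 probe sets, with 2 for Zbtb16 and 1 for each other gene. The cells were C3H10T1/2, an established mouse fibroblast line that can be turned into fat cells.

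The 18 arrays fell into 8 groups, of 3 arrays for IDMB and for UT and 2 for each other group. IDMB is a differentiation mix given for 24 h. It held dexamethasone, a synthetic ligand of the glucocorticoid receptor, at 1 µM, together with IBMX, which blocks the breakdown of cAMP, at 0.5 µM, insulin at 10 µg/mL, and BRL49653 (rosiglitazone, a PPARG agonist) at 1 µM. Cells were exposed to 10 nM EGF, the epidermal growth factor, over 24 h, and to 10 nM TCDD, a dioxin that activates the aryl hydrocarbon receptor, over 72 h. The groups were IDMB + EGF + TCDD, IDMB + EGF, IDMB + TCDD, IDMB, EGF+TCDD, EGF, TCDD and UT, which the labels do not spell out and which was read as cells given none of these. Harvest was 24 h past confluence and 72 h past the last addition of serum in every group, so the UT cells were confluent and without fresh serum as well. Each array read RNA pooled from 6 cultures of this single line, and nothing in the labels says how far the replicates were separate, so p-values measure only the spread between these samples, which may be technical. Dexamethasone was never given without the other 3 agents, so their effects cannot be told apart.

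The glucocorticoid receptor waits in the cytoplasm in a complex with HSP90 and co-chaperones. Once it binds its ligand it enters the nucleus, attaches to response elements in DNA as a dimer and raises transcription nearby, while it lowers many inflammatory genes. In fibroblasts and fat cell precursors this step is part of the classic cocktail that starts adipogenesis. The products of the 6 genes act on the receptor itself (Fkbp5), on transcription and the circadian clock (Zbtb16, Per1) and on signalling (Sgk1, Dusp1, Ddit4).

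Upstream windows from RefSeq (GRCm38.p6), the 250 bases before an annotated start, were available for 5 of the 6 genes, 11 windows in all, with 6 for Sgk1 and 2 for Per1. They were searched on both strands for the palindromic glucocorticoid response element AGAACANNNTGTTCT, its single arm AGAACA, the cAMP response element TGACGTCA and the E-box CACGTG, which clock factors bind. The full glucocorticoid element was in 1 of the 11 windows, at Sgk1, and in 3 of all 32851 windows in the table (0.00913%). The single arm, which the full element contains, was in 3 of 11, all at Sgk1, against 16.1% of all windows. The E-box was in 4 of 11, against 6.02%, and the cAMP element in 1 of 11, at Dusp1, against 1.55%. The 4 windows below hold these matches, apart from single arms in 2 other Sgk1 windows. They are written 5′ to 3′ on the gene's strand, with capitals for the full glucocorticoid element, the cAMP element and the E-box.
Sgk1, chr10:21993640-21993889, plus strand: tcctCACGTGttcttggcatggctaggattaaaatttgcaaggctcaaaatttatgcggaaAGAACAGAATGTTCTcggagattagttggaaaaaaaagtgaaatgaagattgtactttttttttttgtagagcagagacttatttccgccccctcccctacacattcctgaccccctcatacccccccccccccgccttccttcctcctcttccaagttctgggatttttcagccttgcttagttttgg
Dusp1, chr17:26508473-26508722, minus strand: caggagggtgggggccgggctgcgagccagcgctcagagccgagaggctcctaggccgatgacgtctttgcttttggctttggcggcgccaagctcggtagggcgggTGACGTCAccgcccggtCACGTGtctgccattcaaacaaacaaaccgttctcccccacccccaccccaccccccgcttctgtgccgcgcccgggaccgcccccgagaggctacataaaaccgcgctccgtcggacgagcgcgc
Per1, chr11:69098699-69098948, plus strand: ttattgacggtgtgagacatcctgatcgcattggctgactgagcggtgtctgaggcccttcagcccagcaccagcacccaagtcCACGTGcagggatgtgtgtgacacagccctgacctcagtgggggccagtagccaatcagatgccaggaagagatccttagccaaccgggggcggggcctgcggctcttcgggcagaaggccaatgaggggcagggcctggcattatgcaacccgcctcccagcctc
Fkbp5, chr17:28486150-28486399, minus strand: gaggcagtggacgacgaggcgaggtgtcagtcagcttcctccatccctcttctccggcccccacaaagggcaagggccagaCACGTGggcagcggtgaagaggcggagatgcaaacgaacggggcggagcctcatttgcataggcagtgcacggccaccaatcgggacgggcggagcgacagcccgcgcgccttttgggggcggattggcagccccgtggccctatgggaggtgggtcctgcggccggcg
Counted from the start, the Sgk1 element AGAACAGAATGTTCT begins at base -189, and an E-box at base -246 shares 2 bases with a single arm at -242. The Dusp1 cAMP element begins at -143 and its E-box at -126. The E-boxes of Per1 and Fkbp5 begin at -166 and -169. Which of its 6 windows lies before the start that the Sgk1 probe set reads was not resolved, and a match describes letters, not binding.

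All 6 genes were higher with the mix. Levels below are the authors' intensities, on a linear scale that compares arrays but not probe sets. Fold changes come from log2 values, after values under 143.5 had been set to that floor. A gene was called higher or lower at an adjusted p under 0.05 in limma, a linear model fitted to all 18 arrays and adjusted over 7134 tested probe sets by the Benjamini-Hochberg method. In IDMB against UT, 6 of 6 were called higher, against a background of 6.66% of tested probe sets. Over the mean of the 4 backgrounds (none, TCDD, EGF, EGF+TCDD), 6 of 6 were again higher, against 15.5%. The members were chosen with earlier results of these data known, so these shares are no test of them. The median of the 6 log2 changes in that mean was 2.30, against -0.04 over all tested probe sets. For 5 of the 6, Dusp1 being the exception, all 9 arrays with IDMB read above all 9 without it, which held for 2.58% of tested probe sets. In bulk RNA, more cells that express a gene and more RNA in each cell cannot be told apart.

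Fkbp5 encodes FKBP51, a co-chaperone that binds HSP90 and lowers the receptor's affinity for hormone. With the mix, its intensity was 10241.2 and 10384.6 in IDMB + EGF + TCDD, 13160.9 and 12205.2 in IDMB + EGF, 14691.4 and 12456.8 in IDMB + TCDD, and 13338.4, 9901.7 and 10312 in IDMB. Without it, the arrays read 1660.1 and 2052.4 in EGF+TCDD, 1377.3 and 1463 in EGF, 1923.5 and 1293.7 in TCDD, and 1102, 375.5 and 439.7 in UT. The 9 arrays with IDMB lay in a narrow band, while every UT array was below every array of the other 3 groups without IDMB. The gene was 19.6-fold higher in IDMB than in UT (log2 change 4.29, SE 0.296, limma adjusted p = 6.92e-08). The change was 8.58-fold in IDMB + TCDD against TCDD (limma adjusted p = 5.47e-05), 8.93-fold in IDMB + EGF against EGF (3.77e-05) and 5.59-fold in IDMB + EGF + TCDD against EGF+TCDD (0.000475). Averaged over backgrounds it was 9.56-fold (log2 change 3.26, 95% interval 2.89 to 3.63, limma adjusted p = 8.45e-10), the 21st smallest p of 7134.

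Zbtb16 encodes PLZF, a BTB zinc finger repressor of transcription. Its first probe set read 2479.2 and 1991.2 in IDMB + EGF + TCDD, 2757.7 and 4749.4 in IDMB + EGF, 2679.6 and 2006.3 in IDMB + TCDD, and 2065.8, 675.1 and 1268.4 in IDMB. Without the mix it read 14.1 and 14.1 in EGF+TCDD, 31.9 and 9.6 in EGF, 39.6 and 8.9 in TCDD, and 7.2, 29.3 and 12.8 in UT. All 9 arrays without IDMB were under the floor, so their order means nothing and the folds are lower bounds set against the floor. The gene was at least 8.43-fold higher in IDMB than in UT (limma adjusted p = 4.56e-05), at least 16.2-fold in IDMB + TCDD against TCDD (5.48e-05), at least 25.2-fold in IDMB + EGF against EGF (1.11e-05) and at least 15.5-fold in IDMB + EGF + TCDD against EGF+TCDD (8.4e-05). This probe set passed the filter on dim probes only through the groups with IDMB, so it had to differ, and its place in the counts of 6 is no support for them. The second probe set was too dim to be tested. It ran from 77.7 to 565 with IDMB (median 166.1) and from 85.7 to 600.5 without (median 126), so the probe sets disagree. With the filter left off, the second probe set had a mean log2 change of 0.13 (limma adjusted p = 0.864).

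Per1 is a core clock gene, whose protein represses the clock's own activators. Among the 6 it had the smallest change of IDMB against UT. Per1 read 2461.8 and 2623.7 in IDMB + EGF + TCDD, 3171.9 and 3086.1 in IDMB + EGF, 2677.5 and 2356.8 in IDMB + TCDD, and 2143.2, 1965.3 and 2139 in IDMB. It read 798.3 and 603.1 in EGF+TCDD, 1093.8 and 541.5 in EGF, 721 and 1022.1 in TCDD, and 1300.7, 782.8 and 620.6 in UT. The arrays with IDMB were tight within each group and those of IDMB alone were the lowest of them, while the 4 groups without it overlapped each other. Per1 was 2.42-fold higher in IDMB than in UT (log2 change 1.28, SE 0.288, limma adjusted p = 0.0061). It was 2.93-fold higher in the TCDD background (limma adjusted p = 0.00933), 4.07-fold in the EGF background (0.00142) and 3.66-fold in the EGF+TCDD background (0.00384). Leaving out 1 array ended the Per1 call in the TCDD background without the first TCDD array (adjusted p = 0.0882) or the first or second IDMB + TCDD array (0.0599 and 0.052), and in the EGF+TCDD background without the second EGF+TCDD array (0.0589). In such fits the array left alone in its group is assumed to vary like the other groups.

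Sgk1 encodes a serine/threonine kinase that acts on ion channels and FOXO factors, downstream of PI3-kinase. Its intensity was 22474.2 and 28707.3 in IDMB + EGF + TCDD, 13087.5 and 21680.5 in IDMB + EGF, 19676.9 and 10721.4 in IDMB + TCDD, and 10635.4, 8705.6 and 11800.5 in IDMB. The arrays without the mix read 7438.8 and 5917.8 in EGF+TCDD, 6517.8 and 5265.2 in EGF, 4352.1 and 1446.5 in TCDD, and 2114.9, 2029.8 and 910.9 in UT. The levels made a staircase in which both EGF arrays were above all UT and TCDD arrays, all arrays with IDMB above all without it, and both arrays of the full combination above every other. Sgk1 was 6.54-fold higher in IDMB than in UT (log2 change 2.71, SE 0.375, limma adjusted p = 0.000101). The change was 5.79-fold in the TCDD background (limma adjusted p = 0.00213), 2.88-fold in the EGF background (0.0436) and 3.83-fold in the EGF+TCDD background (0.0183). The call in the EGF background was lost in 10 of 18 fits that left out 1 array (either array of EGF, EGF+TCDD, IDMB + EGF or IDMB + EGF + TCDD, or the second or the third of IDMB), with adjusted p from 0.051 up to 0.243. That in the EGF+TCDD background was lost without either EGF+TCDD array (0.0707 and 0.134) or either IDMB + EGF + TCDD array (0.0754 and 0.135). The log2 change in the TCDD background was 3.33 without the first TCDD array and 1.74 without the second.

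Dusp1 encodes a phosphatase that switches off the MAP kinases p38, JNK and ERK. Its intensity was 8634.2 and 6799.8 in IDMB + EGF + TCDD, 8188.8 and 18883.4 in IDMB + EGF, 11111.7 and 5515.7 in IDMB + TCDD, and 13296.3, 11813.4 and 12666.3 in IDMB. It was 4547.3 and 4151.5 in EGF+TCDD, 7432 and 6312.6 in EGF, 5191 and 3520.9 in TCDD, and 2533.5, 3354.9 and 4157.8 in UT. Dusp1 was the member whose arrays with and without IDMB overlapped, since 1 array of IDMB + TCDD lay below both EGF arrays and 1 of IDMB + EGF + TCDD below the higher of them. It was 3.83-fold higher in IDMB than in UT (log2 change 1.94, SE 0.291, limma adjusted p = 0.000211). In the other backgrounds the folds were 1.83 with TCDD (limma adjusted p = 0.125), 1.82 with EGF (0.141) and 1.76 with EGF+TCDD (0.204), none called, and whether they differ from the fold against UT was tested only through the interactions given further on. The mean over backgrounds was 2.18-fold (log2 change 1.12, SE 0.171, limma adjusted p = 9.15e-05). With the actin ratio described further on in the fit, it was 1.33 with an SE of 0.391, and no longer called (adjusted p = 0.0572). The Dusp1 change in the EGF background was called without the first IDMB + EGF array (log2 1.46, adjusted p = 0.0251).

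Ddit4 encodes REDD1, an inhibitor of mTORC1, the kinase complex that drives growth. Ddit4 read 11689.9 and 18183.5 in IDMB + EGF + TCDD, 20845.6 and 41259.6 in IDMB + EGF, 39704.1 and 32682.9 in IDMB + TCDD, and 17164.7, 39828.7 and 52781.9 in IDMB. Its intensity without the mix was 3397.4 and 2786.8 in EGF+TCDD, 4538.6 and 6705.5 in EGF, 6033.6 and 5241.7 in TCDD, and 4971.7, 6711.7 and 7835.2 in UT. IDMB arrays spread widely, and both EGF+TCDD arrays were below every other array. Ddit4 was 5.17-fold higher in IDMB than in UT (log2 change 2.37, SE 0.344, limma adjusted p = 0.000153). It was 6.41-fold higher in the TCDD background (limma adjusted p = 0.00063), 5.32-fold in the EGF background (0.00142) and 4.74-fold in the EGF+TCDD background (0.00367). The last call was lost without the second EGF+TCDD array (adjusted p = 0.051) or the second IDMB + EGF + TCDD array (0.0584).

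**Figure D1:**
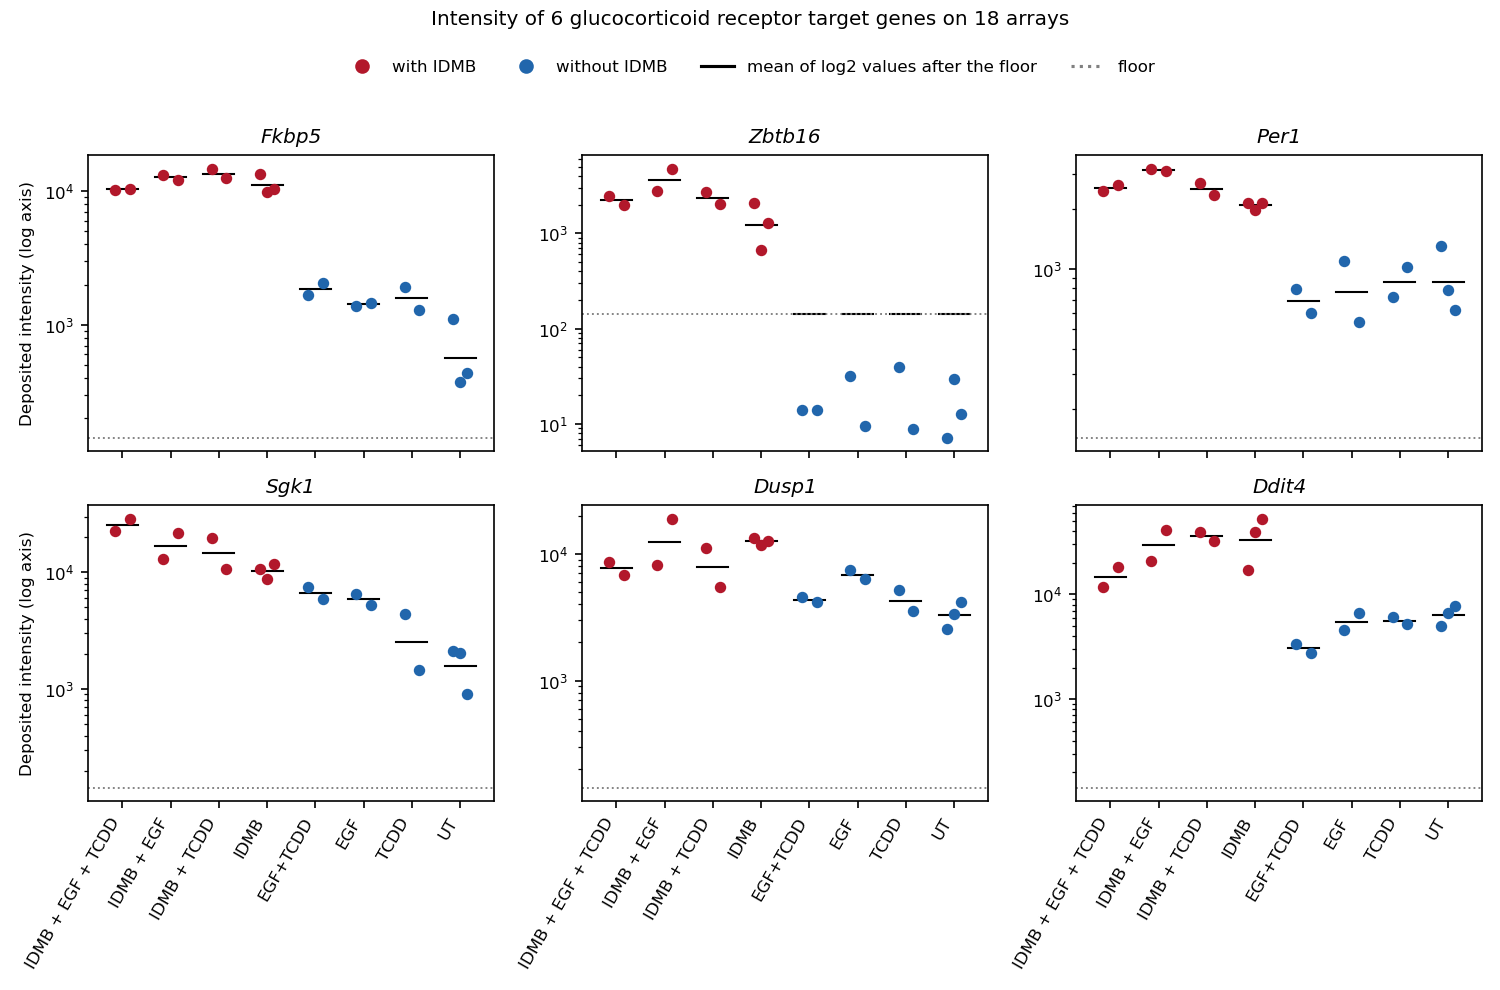
Deposited intensity (log axis) of the 6 genes on each of the 18 arrays, by group, with red points for arrays with IDMB and blue for those without, black bars for the mean of the log2 values after the floor, and a dotted line at the floor of 143.5. In 5 panels every red point lies above every blue one, in Dusp1 they overlap, and all blue Zbtb16 points are under the floor.

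In each of the other 3 backgrounds, then, 5 of the 6 genes were called higher with the mix, Dusp1 being the one that was not. The share of all tested probe sets called higher was 6.53% in IDMB + TCDD against TCDD, 5.52% in IDMB + EGF against EGF and 3.45% in IDMB + EGF + TCDD against EGF+TCDD. With 1 array left out, the counts were 4 to 5 in the TCDD background, 4 to 5 in the EGF background and 2 to 5 in the EGF+TCDD background, the lowest being without the second EGF+TCDD array, and 3 without the second IDMB + EGF + TCDD array. With the actin ratio in the fit, 3 members were called in the TCDD background and 1, Zbtb16, in the EGF+TCDD background. The largest estimate of Fkbp5, Sgk1 and Dusp1 was that against UT. For Per1 the largest estimate was that in the EGF background, and for Ddit4 that in the TCDD background. The Zbtb16 values are bounds and were not ranked.

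**Figure D2:**
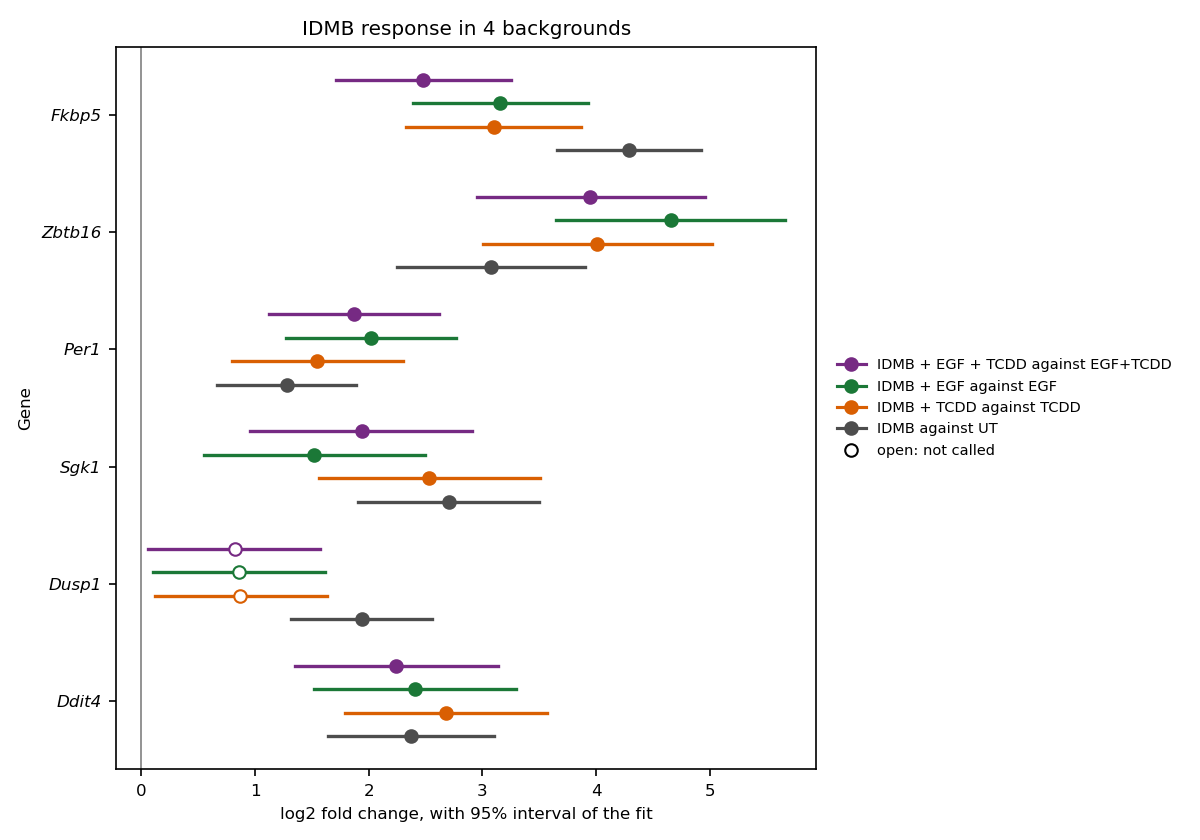
Log2 fold change with IDMB (horizontal axis) for each gene in 4 backgrounds, with points for the estimates, bars for the 95% interval of the fit and open points where the adjusted p was not under 0.05. The 3 open points are all of Dusp1, and the Zbtb16 points are lower bounds against the floor.

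The group means placed UT lowest for Fkbp5, Sgk1 and Dusp1, EGF+TCDD lowest for Per1 and Ddit4, and gave Zbtb16 no order among groups without IDMB. Going up from UT, Fkbp5 followed the order EGF, TCDD, EGF+TCDD, IDMB + EGF + TCDD, IDMB, IDMB + EGF and IDMB + TCDD, and its neighbours in that order did not overlap only between UT and EGF and between EGF+TCDD and the first group with the mix. The order for Sgk1 was UT, TCDD, EGF, EGF+TCDD, IDMB, IDMB + TCDD, IDMB + EGF and IDMB + EGF + TCDD, with arrays that did not overlap between TCDD and EGF, between EGF+TCDD and IDMB, and before the last group. Per1 had IDMB + EGF highest, with both arrays clear of those of IDMB + EGF + TCDD and IDMB + TCDD, which overlapped each other, and these were clear of IDMB. The order for Dusp1 was UT, TCDD, EGF+TCDD, EGF, IDMB + EGF + TCDD, IDMB + TCDD, IDMB + EGF and IDMB, and the only neighbours that did not overlap were EGF+TCDD and EGF. Ddit4 ended with IDMB + EGF, IDMB and IDMB + TCDD, which overlapped one another. Next below them came IDMB + EGF + TCDD, whose Ddit4 arrays were clear of those of IDMB + EGF but not of the lowest IDMB array. Zbtb16 was highest in IDMB + EGF, whose arrays were clear of the other 3 groups with the mix. Groups this small can separate by chance, and the groups were sorted by their means before neighbours were compared. The share of all tested probe sets whose neighbouring groups separate in this way is not given here. These separations therefore describe the arrays and are no test of a difference between groups. The same limit applies to the separations of single groups in the accounts of each gene above.

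EGF alone gave calls for Fkbp5 and Sgk1. Fkbp5 was 2.51-fold higher in EGF than in UT (limma adjusted p = 0.0279) and Sgk1 3.72-fold (log2 change 1.89, SE 0.42, limma adjusted p = 0.0174). Dusp1 had a 2.09-fold difference that was not called (limma adjusted p = 0.0654). These were 2 of 6 members called, against 6.17% of tested probe sets in either direction. Both calls were lost without either EGF array (adjusted p = 0.121 and 0.202 for Fkbp5, 0.119 and 0.116 for Sgk1), and that of Fkbp5 also without the second or the third UT array (0.122 and 0.0643). The Dusp1 difference was called in 5 of those 18 fits, without the third UT array (0.0461) or an array of IDMB + TCDD or IDMB + EGF (0.0347 to 0.0428). The 3′ to 5′ ratios of control probes, a sign of RNA quality, moved with EGF. The Gapdh ratio was 1.43 to 2.71 on the 4 arrays with EGF and 0.85 to 1.52 on the 5 without it among those without IDMB, and 1.75 to 2.86 against 1.05 to 1.73 among those with IDMB. The actin ratio was 1.52 to 1.93 against 1.23 to 1.43 without IDMB and 2.24 to 3.80 against 1.80 to 2.25 with it. With the actin or Gapdh ratio in the fit, the log2 changes in EGF against UT were 1.25 or 1.13 for Fkbp5 and 1.71 or 1.74 for Sgk1, with adjusted p of 0.0687 to 0.127.

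TCDD alone gave a call for Fkbp5, which was 2.78-fold higher in TCDD than in UT (log2 change 1.48, SE 0.331, limma adjusted p = 0.0144), the 1 call of 6, against a background of 7.68%. It was lost without the first TCDD array (log2 change 1.19) or the second UT array (limma adjusted p = 0.0663). The Gapdh ratio was 0.92 and 0.85 on the TCDD arrays, against 1.52, 1.45 and 1.25 on those of UT. With that ratio in the fit the call was lost too (log2 change 1.78, limma adjusted p = 0.114). So it was without the filter on dim probes (0.057). In EGF+TCDD against UT, Fkbp5 was 3.26-fold higher (limma adjusted p = 0.00879) and Sgk1 4.21-fold (0.0111), 2 of 6 against 5.4%. Both calls were lost without either EGF+TCDD array (0.0627 and 0.105 for Fkbp5, 0.137 and 0.0613 for Sgk1). With the actin or the Gapdh ratio in the fit, both calls were lost too (limma adjusted p from 0.0685 to 0.34). The log2 changes were then 1.61 or 1.32 for Fkbp5 and 1.84 or 1.76 for Sgk1. In EGF+TCDD against UT, Ddit4 had a log2 difference of -1.06 that was not called (limma adjusted p = 0.131, or 0.0434 without the first IDMB array). The 4 comparisons against UT, that of IDMB included, share the 3 UT arrays, and 1 of those read 1102 for Fkbp5 against 375.5 and 439.7 in the other two.

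With the mix present, adding EGF, TCDD or both gave no call in the 6 genes by limma. In IDMB + EGF against IDMB, 0 of 6 were called and 1 had an unadjusted p under 0.05, against a background of 3.8% called. That one was Zbtb16, with a 2.99-fold difference (log2 1.58, limma adjusted p = 0.0538), called without the first IDMB array (0.0258). In IDMB + TCDD against IDMB, 0 were called and 1, again Zbtb16 (log2 difference 0.94, limma adjusted p = 0.208), had an unadjusted p under 0.05, against 6.59%. In IDMB + EGF + TCDD against IDMB, 0 were called and 3 had an unadjusted p under 0.05, against 6.81%. These were Sgk1 (log2 difference 1.30, limma adjusted p = 0.0762), Ddit4 (-1.18, limma adjusted p = 0.0791) and Dusp1 (-0.71, limma adjusted p = 0.217). Sgk1 was called there without the third UT array (0.0421) or either TCDD array (0.0358 and 0.0357), and Ddit4 without the first IDMB array (log2 -1.65, 0.00557). The comparisons of the combination with a single agent gave 0 calls as well. In limma, 0 genes in EGF+TCDD against EGF and 1 in EGF+TCDD against TCDD had an unadjusted p under 0.05, against 0.28% and 3.5% of probe sets called. That 1 was Sgk1 (log2 difference 1.40, limma adjusted p = 0.102), called without the first TCDD array (2.20, 0.0231). The same count was 1 in IDMB + EGF + TCDD against IDMB + EGF and 1 in IDMB + EGF + TCDD against IDMB + TCDD, against 0.364% and 0.28% called. Both times it was Ddit4, with log2 differences of -1.01 (limma adjusted p = 0.605) and -1.30 (0.221), and its arrays in the full combination read 11689.9 and 18183.5.

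Over the 4 EGF comparisons together, Sgk1 rose 2.30-fold (log2 change 1.20, SE 0.22, limma adjusted p = 0.00309) and Ddit4 fell 1.56-fold (log2 change -0.64, SE 0.201, limma adjusted p = 0.0459), against 7.06% of probe sets called higher and 6.04% lower. The Ddit4 call was lost in 14 of 18 fits that left out 1 array, with adjusted p up to 0.119. With the actin or the Gapdh ratio in the fit, limma called 0 of all 7134 probe sets. The log2 changes were then 0.95 or 0.88 for Sgk1 (SE 0.37 or 0.559) and -0.63 or -0.41 for Ddit4 (SE 0.347 or 0.515). Fkbp5 (log2 0.34, limma adjusted p = 0.218), Zbtb16 (0.38, 0.30), Dusp1 (0.26, 0.348) and Per1 (0.04, 0.919) were not called. For Zbtb16 such means rest on the groups with IDMB alone, since the others sat at the floor.

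Over the 4 TCDD comparisons, limma called 0 of 6 genes, against 5.54% of probe sets, while 4 had an unadjusted p under 0.05. Fkbp5 (log2 0.46, limma adjusted p = 0.153) and Sgk1 (0.48, 0.24) had positive values, and Dusp1 (-0.41, 0.191) and Ddit4 (-0.48, 0.202) negative ones. Per1 was at -0.04 and Zbtb16 at 0.06. Leaving out 1 array gave a call for Fkbp5 (without the first UT array), Ddit4 (without the first IDMB array) or Dusp1 (without the first IDMB + EGF array), 1 at a time.

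Whether EGF or TCDD acted differently with and without the mix was tested as an interaction, and limma called 0 of 6 for EGF (1 at an unadjusted p under 0.05, background 0.126%) and 0 of 6 for TCDD (1, background 0.112%). The gene under that unadjusted threshold was Fkbp5 both times. Its EGF effect was lower with the mix than without it by 0.87 on the log2 scale (interaction -0.87, 95% interval -1.61 to -0.14, limma adjusted p = 0.323). Its TCDD effect differed by -0.93 (95% interval -1.67 to -0.20, limma adjusted p = 0.524), and this became a call without the first UT array (adjusted p = 0.0414). The EGF interaction of Sgk1 was -0.89 (95% interval -1.82 to 0.04, limma adjusted p = 0.429). Dusp1 had interactions of -0.57 with EGF and -0.55 with TCDD, neither called (limma adjusted p = 0.531 and 0.742).

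**Figure D3:**
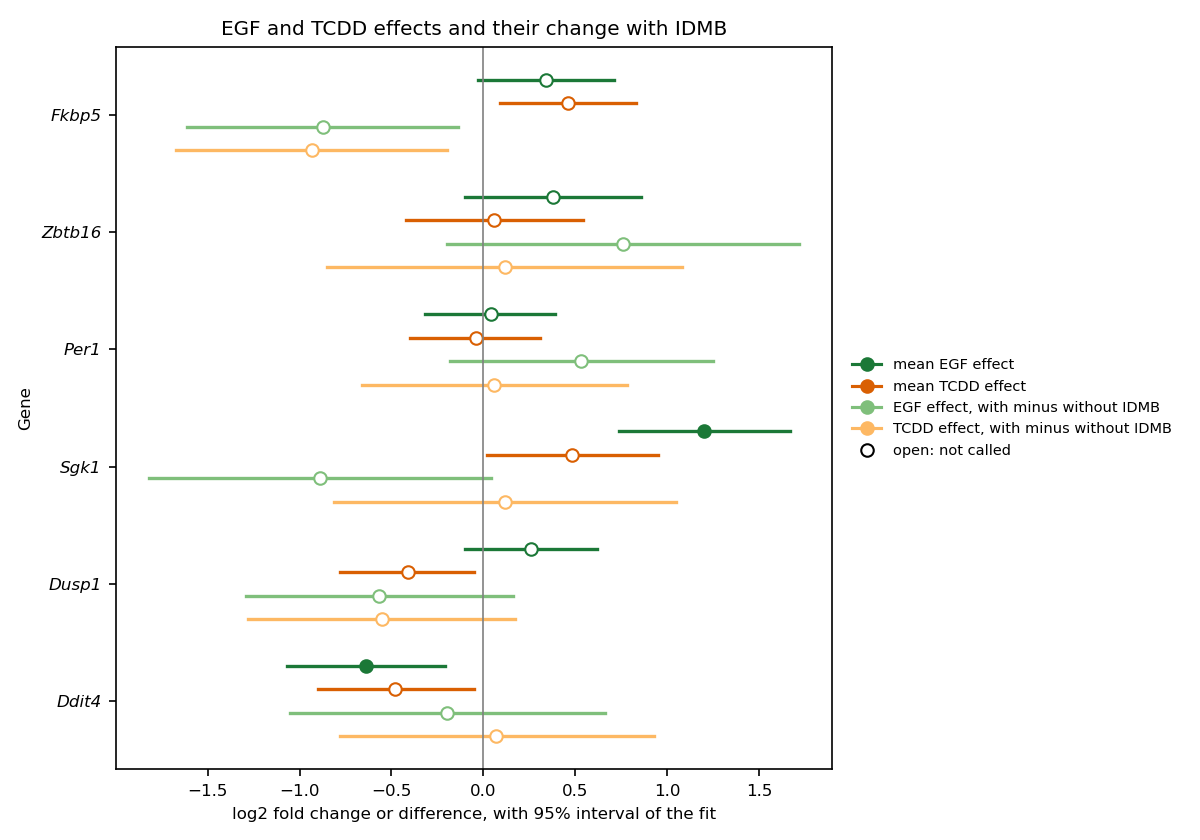
Mean EGF and TCDD effects (dark green and orange) and the change of each effect with IDMB minus without it (pale), as log2 values with the 95% interval of the fit, for the 6 genes. The filled points are the called ones, the EGF effects on Sgk1 (1.20) and Ddit4 (-0.64), and all pale points are open.

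Other genes known to be raised through the receptor were mostly higher too. Of 40 listed, 34 were on the array and 27 were tested, and in the mean effect of IDMB 16 were higher, 4 lower and 7 not called. Their median log2 change was 0.82, against -0.04 over all probe sets, of which 15.5% were called higher and 18.6% lower, 34.1% in all. The counts of the lists that follow stand against these shares. This list and those were chosen with earlier results of these data known, so the shares are no test of them. Changes with IDMB in these lists are in the mean effect unless named otherwise, and several were not called in IDMB against UT. With the actin ratio in the fit, far fewer probe sets were called in the mean effect, as counted in the last section. Which list genes kept their calls in that fit is not given here. The metallothionein Mt1, which binds zinc, read 106433.6 to 162204.5 with IDMB and 3176 to 46895.1 without (16.2-fold, limma adjusted p = 1.45e-08). The related Mt2 rose 6.88-fold (1.97e-08). Errfi1, a feedback inhibitor of the EGF receptor, read 25472.3 to 47735.8 with IDMB and 2840.9 to 7341.3 without, a 6.24-fold rise (limma adjusted p = 2.18e-11).

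Pdk4, a kinase that holds back glucose oxidation, rose 4.77-fold (limma adjusted p = 1.11e-05), and Angptl4, which inhibits lipoprotein lipase, rose 5.26-fold (3.66e-06). Both are also known targets of the PPAR family, and the mix held a PPARG agonist. The acute-phase genes Lcn2 (5.54-fold, limma adjusted p = 4.73e-08) and Saa3 (at least 7.47-fold, 3.04e-08) rose as well, Saa3 being under the floor on both EGF arrays. Ctla2b had 1014.3 to 28166.7 with IDMB and 65.7 to 469.8 without, under the floor on 4 arrays (at least 18.7-fold, limma adjusted p = 4.92e-09). Every array without IDMB was under the filter on dim probes (849.9), so like Zbtb16 it was tested only through the groups with IDMB. It had to differ, and its place among the genes called higher is no support for that count. Ctla2b fell at least 3.92-fold over the 4 TCDD comparisons (limma adjusted p = 0.000295). The 4 genes of this list that fell, chosen here after their values were seen, were Cavin2 (log2 change -1.94), Adm (-1.26), Timp3 (-1.07) and Lox (-0.82). Tsc22d3 (GILZ), a classic receptor target, was too dim to be tested, at 166.6 to 924.4 with IDMB and 138.7 to 959.5 without.

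Inflammatory genes that glucocorticoids are known to lower moved the other way. Of 22 listed, 20 were on the array and 9 were tested, and 0 were higher, 7 lower and 2 not called, with a median log2 change of -0.78 in the mean effect of IDMB. The monocyte attractant Ccl2 read 1782.7 to 8287.9 with IDMB and 10658.9 to 58766.7 without, a fall of 9.99-fold (limma adjusted p = 1.17e-07). Ccl7, a related chemokine, fell 4.12-fold (0.000102), Ptx3, a secreted pattern recognition protein, 3.27-fold, and Ptgs2, the inducible cyclooxygenase, 2.38-fold (0.00936).

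Of 25 genes for the receptor, its chaperones and the enzymes that act on its ligands, 19 were on the array and 16 were tested, with 2 higher, 4 lower and 10 not called, and a median of -0.01. In the mean effect of IDMB, the chaperone Hsp90aa1 fell by 0.52 on the log2 scale (limma adjusted p = 0.000461). So did Stip1 by 0.43 (0.00709), Dnajb1 by 0.66 (0.00201) and Fkbp4 by 0.56 (0.000254). None of them was called in IDMB against UT. Their log2 changes there, in this order, were -0.18, -0.20, -0.46 and -0.23 (limma adjusted p from 0.256 to 0.577). Fkbp4 encodes FKBP52, the relative of FKBP51 that favours receptor activity. Fkbp4 had 2 tested probe sets, and only that with the higher mean over the arrays is given here. It read 5523.1 to 7819.5 with IDMB and 8107.6 to 14217.4 without, lower with IDMB where Fkbp5 was higher. The share of all probe sets separated downward in this way is not given here. The HSP70 cofactor St13 rose by 0.46 and H6pd, which supplies the cofactor of 11β-HSD1, by 0.51. Hsd11b1, the gene of 11β-HSD1, which regenerates active glucocorticoid, was not called in the mean effect of IDMB (log2 change 0.02, limma adjusted p = 0.96). Nor was it called in IDMB against UT, where its log2 change was 1.27 (limma adjusted p = 0.089). It rose at least 2.42-fold over the EGF comparisons (limma adjusted p = 0.00853), with 1 array under the floor. This EGF call was lost with the actin or the Gapdh ratio in the fit. The receptor gene Nr3c1 was too dim to be tested, at 20.4 to 497.3 with IDMB and 10.8 to 579 without, and 7 of 18 arrays were under the floor.

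Paralogs of the 6 genes were called in both directions. Of 36 listed, 23 were on the array and 18 were tested, with 5 higher, 8 lower and 5 not called, and a median of -0.23. Bcl6, a BTB zinc finger repressor like Zbtb16, rose 4.74-fold (limma adjusted p = 6.03e-08), and read 3053 to 6939 with IDMB and 644.5 to 1433 without. Per2 rose 1.92-fold (0.00278). Among relatives of Dusp1, Dusp6, which acts on ERK, fell 2.03-fold in the mean effect of IDMB (limma adjusted p = 0.00868). It rose 4.33-fold in the mean effect of EGF (limma adjusted p = 0.000484). Dusp2 had a log2 change of 0.95 in the mean effect of IDMB (limma adjusted p = 0.0323). In IDMB against UT neither was called, with log2 changes of -0.10 for Dusp6 (limma adjusted p = 0.935) and 0.28 for Dusp2 (0.822). The EGF call of Dusp6 was lost with the actin or the Gapdh ratio in the fit. Among immunophilins, Fkbp11 fell by 1.12 on the log2 scale (0.000671) and Fkbp9 by 0.54 (0.000299), and Fkbpl rose by 0.77 (0.00202). Sgk2 and Sgk3 had 0 probe sets.

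Of 21 clock genes, 16 were on the array and 15 were tested, with 4 higher (Per2, Nr1d1, Nfil3 and Csnk1d), 2 lower (Cry1 and Dbp) and 9 not called. Cry1, the partner of the PER proteins, fell 3.27-fold (limma adjusted p = 2.77e-07), at 513.9 to 1269.5 with IDMB and 1527.1 to 2942.8 without. The repressor Nfil3 rose 4.56-fold (2.08e-07) and Nr1d1, the nuclear receptor REV-ERBα, 1.67-fold (0.000101). Dbp, an activator that Nfil3 opposes at shared sites, fell at least 2.69-fold (0.0126), with 2 arrays under the floor. All cells were taken at 1 time, so phase and level of the clock cannot be told apart.

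In the pathways of SGK1 and DDIT4, 16 of 25 listed genes were on the array and 15 were tested, with 2 higher, 2 lower and 11 not called. Sesn1, which like DDIT4 restrains mTORC1, rose 2.57-fold (limma adjusted p = 1.97e-07), and Foxo3, a transcription factor that SGK1 phosphorylates, had a log2 change of 0.76 (1.84e-05). Ndrg1, whose protein is a substrate of SGK1, fell 2.32-fold (limma adjusted p = 0.00147). The ubiquitin ligase Nedd4l, also a substrate, fell by 0.49 on the log2 scale (limma adjusted p = 0.0138). In IDMB against UT, Foxo3, Ndrg1 and Nedd4l were not called (limma adjusted p = 0.231, 0.0735 and 0.816). Sesn1 (log2 change 0.70, limma adjusted p = 0.0253) and Eif4ebp1, also of this list (0.69, 0.0167), were called higher there.

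Genes that cAMP or ERK signalling is known to raise were listed because IBMX was in the mix and EGF acts through ERK. Of 20 cAMP-induced genes, 15 were on the array and 9 were tested, with 1 higher, 3 lower (Bdnf, Id2 and Atf3) and 5 not called in the mean effect of IDMB. The 1 was Rgs2, a brake on G protein signalling, which rose 29.0-fold (limma adjusted p = 1.55e-11), beside the 9.56-fold of Fkbp5. Of 24 ERK-induced genes, 17 were on the array and 16 were tested, with 4 higher, 5 lower and 7 not called. In the mean effect of EGF, 7 of these 16 were higher and 0 lower, against 7.06% and 6.04% of probe sets, among them Egr1 (5.22-fold, limma adjusted p = 0.000569) and Fosl1 (2.50-fold, 0.00148). None of these EGF calls held with the actin or the Gapdh ratio in the fit, where no probe set was called.

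**Figure D4:**
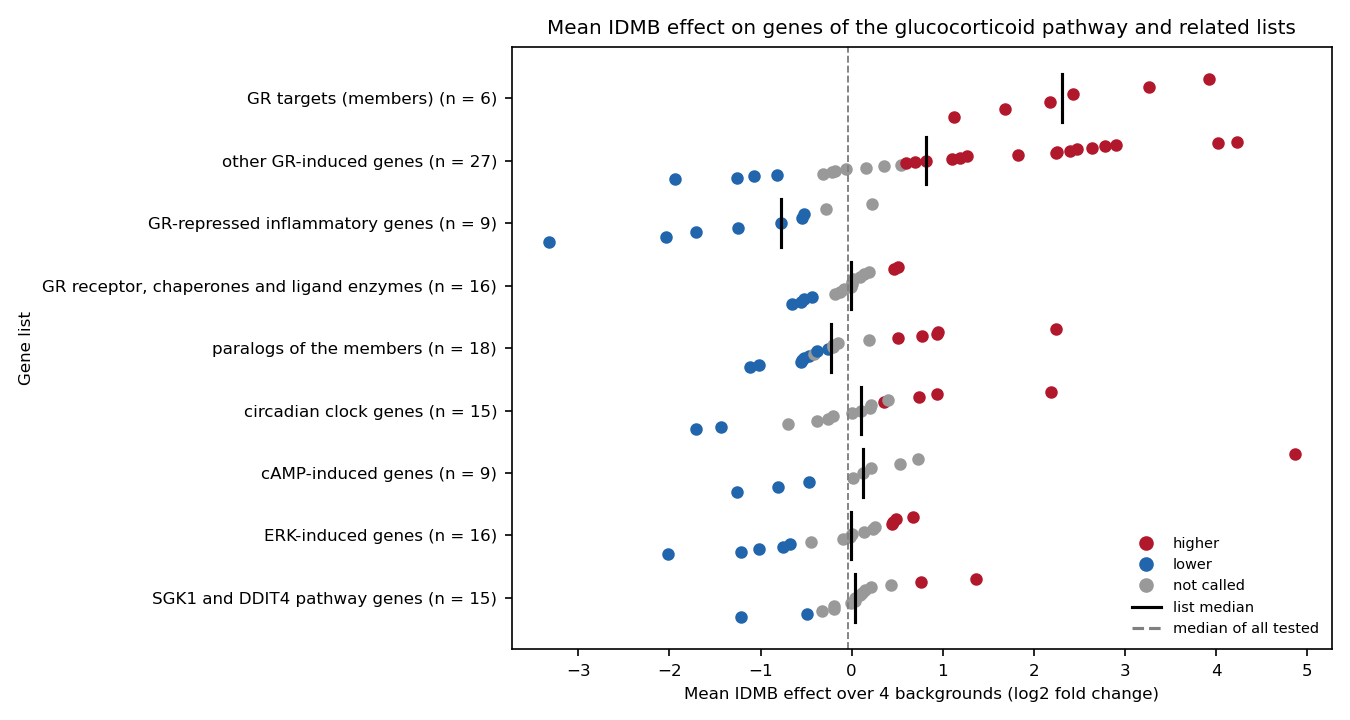
Mean IDMB effect (log2 fold change) of the tested genes of each list, with red for higher, blue for lower and grey for not called, a black bar for the list's median and a dashed line for the median of all tested probe sets (-0.04). The 6 members lie between 1.12 and 3.92, and the inflammatory list has no red point.

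Among all tested probe sets of other genes, those that followed each member most closely over the 18 arrays were found by Pearson's r of log2 values. The arrays fall into 2 clusters, with and without IDMB, so r over all 18 carries the step between them, and r within the 9 arrays of each kind is given beside it. Errfi1 was closest to Fkbp5 (r = 0.964 over 18 arrays, 0.02 within those with IDMB and 0.74 within those without), followed by Pld1 (0.945, with 0.36 and 0.55) and Imp3 (0.945, with -0.19 and 0.73). Pptc7 was closest to Sgk1 (0.923, with 0.74 and 0.85 within the 2 kinds), and Timm8b to Per1 (0.95, with 0.60 and 0.77). Adipor2, an adiponectin receptor gene, was closest to Dusp1 (0.918, with 0.76 and 0.85), and Rrp1b to Ddit4 (0.964, with 0.90 and 0.77). Ezh1 was closest to Zbtb16 (0.968, with 0.88 within the arrays with IDMB), then Lbp (0.966, with 0.55) and Bcl6 (0.963, with 0.75), the arrays without IDMB being at the floor. Ezh1 was also the second closest to Per1 (0.947, with 0.80 and 0.88).

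The 18 arrays were of like brightness, with medians from 793.4 to 935.7. Replicates of a group correlated at 0.947 to 0.9731 over probe sets, and 0 pairs of arrays held identical values. The 3′ to 5′ ratio of the actin control probes was higher with IDMB (1.80 to 3.80) than without (1.23 to 1.93), and that of Gapdh was 1.05 to 2.86 against 0.85 to 2.71. With the actin ratio in the fit, 5 of the 6 genes were still called in the mean effect of IDMB, all but Dusp1. Of 9 fibroblast markers, 7 were above the array-wide median on all arrays, and their summed intensity was 251512.9 to 432102 with IDMB and 262156.5 to 490349.7 without. Col1a1 (log2 -0.56), Thy1 (-1.24), Pdgfrb (-0.35) and S100a4 (-0.66) were called lower in the mean effect of IDMB, and the other 4 tested were not called. Macrophage markers summed to 5612.9 to 7991.5 with IDMB and 6941.3 to 13213.1 without, with 5 of 9 (Ptprc and Adgre1 among them) under the floor on most arrays. Endothelial markers (8 genes) summed to 8432.8 to 12873.8 with IDMB and 9889.3 to 16964.7 without, with Cdh5, Tie1 and Vwf mostly under the floor. Epithelial markers (8 genes) summed to 2636.3 to 5347.5 with IDMB and 2672 to 4874.9 without, with Epcam, Krt14 and Krt19 mostly under the floor. Skeletal muscle markers (8 genes) summed to 2858.3 to 4476.1 with IDMB and 2763.7 to 4594.9 without, with Myf5, Acta1 and Myh3 mostly under the floor. In each of the macrophage, endothelial, epithelial, skeletal muscle and adipocyte lists, 1 gene was above the array-wide median on all arrays. Adipocyte markers (7 of 9 on the array) summed to 2932.1 to 8826.9 with IDMB and 2576.8 to 5414.7 without, with Cidec and Retn mostly under the floor. Of the 4 tested, Adipoq (2.19-fold, limma adjusted p = 0.00361) and Fabp4 (2.52-fold, 5.52e-05), markers of fat cells, were called higher in the mean effect of IDMB. In IDMB against UT, Adipoq alone was called (5.18-fold, limma adjusted p = 0.00173), and Fabp4 (0.0978), Lpl (0.0965) and Lep (0.998) were not. The part of any of these in the members' changes was not tested.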

How the data were processed

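The values used are the authors' deposited intensities, 1 per probe set and array on a linear scale from 0.4 to 441059.8. Arrays had been scaled to a common trimmed mean, as the values show. The software behind them, not given in the sources used here, is unknown. No detection calls were used. Values under the 20th percentile (143.5) were set to it and log2 was taken.

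Of 12488 probe sets, 66 were controls, 10833 carried 1 symbol, 396 several and 1193 none. Probe sets were tested if their highest group mean reached 9.73, the median of log2 values over the array, and 7134 for 5438 genes passed. A gene's main probe set is the one with the highest mean over the 18 arrays. limma 3.58.1 in R 4.3.3 fitted 1 mean per group over all 18 arrays, with a variance trend (10 residual and 6.03 prior degrees of freedom), and adjusted p within each of 19 comparisons. Effects named as means weight backgrounds equally. The number of arrays limits the precision. Groups of 2 or 3 allow no test for outlying arrays. The fit was tested on simulated data.

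The members and the 15 gene lists, cell type markers included, were chosen with earlier results of these data known. Genes named are the 6 members, up to 8 called genes a list by size of change, 10 genes of receptor biology whatever their values, and the 3 closest in pattern to each member. Same-numbered replicates deviated together in 14 of 57 pairs (r over 0.1) and oppositely in 0 (r under -0.1), with r from -0.10 to 0.44, so numbers were not read as pairs. Alternatives tried were the scaling, the floor, the filter, the variance trend, array weights, only the groups compared, the replicate block, RNA-quality covariates, the other Zbtb16 probe set and leaving out each array. Sequences were read with Python 3.11.15 from RefSeq windows.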

Additional observations from a re-analysis of the deposited data

How the results depend on the processing

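Over 19 comparisons, 2052 results of single members were refitted with 1 array left out: 1988 kept their side of the threshold, 46 lost their call, 18 gained one and 0 called results reversed. Of 1374 under other settings, 1322 kept their side, 46 lost their call, 5 gained one and 1 reversed, the second Zbtb16 probe set in IDMB + TCDD against TCDD (log2 -0.09). A further 68 values called in neither fit changed sign. With 1 array left out, the members called were 6 to 6 in IDMB against UT and in the mean IDMB effect, 4 to 5 in the TCDD and EGF backgrounds, 2 to 5 in the EGF+TCDD background, 0 to 1 in TCDD against UT, 0 to 3 in EGF against UT and in EGF+TCDD against UT, 1 to 3 in the mean EGF effect, 0 to 1 in the mean TCDD effect, the IDMB by TCDD interaction, EGF+TCDD against TCDD, IDMB + EGF against IDMB and IDMB + EGF + TCDD against IDMB, and 0 to 0 in the other 5 comparisons. Without UT replicate 1, Fkbp5 was called in the mean EGF effect (adjusted p = 0.0132), the mean TCDD effect (0.00423) and the IDMB by TCDD interaction (0.0414). Dusp1 without the first IDMB + EGF array (0.0451) and Ddit4 without the first IDMB array (0.0322) were called in the mean TCDD effect.

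Without the filter on dim probes the count was 0 in TCDD against UT and in EGF against UT, 1 in EGF+TCDD against UT and 1 in the mean EGF effect. The same held with the second Zbtb16 probe set, which also gave 3 in the EGF and EGF+TCDD backgrounds and was not called in IDMB against UT (log2 0.19, adjusted p = 0.966). Without the variance trend the count was 1 in EGF against UT, in the mean EGF effect and in IDMB + EGF against IDMB (Zbtb16). Quantile normalization gave 1 in the mean EGF effect, the floor at the 40th percentile 1 in IDMB + EGF against IDMB, and array weights 1 in IDMB + EGF + TCDD against IDMB (Ddit4). With the actin ratio as covariate it was 3 in the TCDD background, 1 in the EGF+TCDD background, and 0 in EGF against UT, EGF+TCDD against UT and the mean EGF effect. With the Gapdh ratio it was 0 in TCDD against UT, EGF against UT, EGF+TCDD against UT and the mean EGF effect. With the actin ratio the mean IDMB effect had 238 probe sets higher and 210 lower, against 1104 and 1328 without it. Fitting only IDMB and UT arrays gave 305 higher and 322 lower, against 475 and 529. Probe sets called in either direction also moved over 1.5 times in comparisons within 1 background, the IDMB, EGF and TCDD ones of which follow. With the actin ratio, 121 were higher and 89 lower in the TCDD background, 257 and 189 in the EGF background, 67 and 34 in the EGF+TCDD background, 229 and 253 in IDMB against UT, 100 and 76 in EGF against UT, and 37 and 35 in EGF+TCDD against UT. With the Gapdh ratio, 16 and 20 were called in TCDD against UT, 92 and 97 in EGF against UT, and 9 and 1 in EGF+TCDD against UT. Without the filter, 187 and 151, 95 and 89, and 91 and 74 were called in those 3. With array weights, 403 and 437 were called in the EGF+TCDD background, 593 and 555 in TCDD against UT, 532 and 394 in EGF against UT, and 463 and 358 in EGF+TCDD against UT. In the reported fit, 914 were called in the TCDD background, 770 in the EGF background, 464 in the EGF+TCDD background, 1004 in IDMB against UT, 548 in TCDD against UT, 440 in EGF against UT and 385 in EGF+TCDD against UT. With the replicate block, 6 members were called in IDMB against UT, 6 in the mean IDMB effect and 2 in the mean EGF effect, and it changed no call of a member. For Zbtb16, a level without IDMB is limited by the floor.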
